A study of Mus musculus with 7 samples.

Results

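The genes described here make, break down or sense extracellular NAD, ATP and adenosine. They were followed in 7 RNA-seq libraries of CD8+ T cells that had been exposed to small extracellular vesicles (sEVs) for 48 hours. The group holds 10 genes of the 55367 in the table of counts: Bst1, Cd38, Art2b and Nampt act on NAD, Entpd1 and Nt5e are the ecto-nucleotidases, P2rx7 and Adora2a are receptors, and Ada and Slc29a1 clear adenosine. The family was chosen from the rise of Bst1 with leukemic sEVs in these same libraries, and the other 9 genes were taken for their function. The Bst1 difference is therefore given as a description with no test, and the members were listed with earlier results of these data known.

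All cells came from spleens of mice of the Foxp3 YFP/cre strain, which carry a reporter and Cre recombinase at the locus of Foxp3, and are labelled as CD8+ T cells. According to the methods, such cells were cultured on anti-CD3 with anti-CD28 and IL2. In 4 libraries the cells received HCME-sEVs, the sEVs purified from the spleens of healthy mice, and in 3 libraries they received LME-sEVs, purified from spleens of leukemic Eμ-TCL1 mice, in which the TCL1 transgene is driven in B cells. These group sizes are those of the labels, which were followed here. A figure legend of the study gives the reverse for this time point, 4 with LME-sEVs and 3 with HCME-sEVs. Per the labels, cells were sorted by FACS and every culture had 100 μg/mL of sEVs. The methods instead describe bead selection of CD8+ T cells and sEVs dosed by the amount found in the respective spleen. An equal dose in both groups is therefore not certain, and a difference in dose cannot be told apart from a difference in the kind of sEV. The labels give no age, and the methods describe young adult mice unless stated otherwise. Whether libraries came from separate animals is not given in the sources used here, so p-values measure the spread between these libraries, which may be technical.

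Extracellular NAD and ATP leave stressed or activated cells and act on T cells through linked enzymes and receptors. CD38 and BST1 (CD157), which arose from a common ancestral gene, consume NAD, and ART2 uses it to ADP-ribosylate surface proteins, among them the ATP-gated channel P2X7. CD39, encoded by Entpd1, degrades ATP to AMP, and CD73, encoded by Nt5e, turns AMP into adenosine, which raises cAMP in T cells through the receptor encoded by Adora2a and restrains their activation. Inside the cell NAMPT, the rate-limiting enzyme of NAD salvage, rebuilds NAD from nicotinamide.

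Counts were of 3′ ends collapsed by unique molecular identifier, between 3689831 and 5030522 per library, and levels are given in TMM-normalized CPM, the counts scaled to a common library size. A floor of 3 counts, which covers counting error only, equals between 0.582 and 0.807 CPM. Counts of libraries of the same group differed by more than counting noise in all pairs (chi-square divided by its degrees of freedom, 2.12 to 6.02). A gene was tested when its mean reached 5 counts per library, which held for 12623 genes and 9 of the 10 members. A gene passed the test at an FDR under 0.05 in edgeR's quasi-likelihood test, adjusted by Benjamini and Hochberg over all 12623. By this rule 3.75% of tested genes were higher and 5.21% lower with LME-sEVs, and 1.28% also had a log2 fold change beyond 1 in either direction. Scaling by library size alone shifted the share of higher genes among those that passed from 41.8% to 56.9%. The marker genes Cd8a, Cd8b1, Cd3d, Cd3e, Cd3g, Trac and Lck summed to between 2005 and 2546 CPM, whereas Cd4 and Foxp3 had at most 3 counts in any library.

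Of the 8 tested members other than Bst1, 1 passed the test as higher (Cd38, 1.85-fold by group means) and 1 as lower (Nampt, 0.780-fold). The other 6, Art2b, Entpd1, Nt5e, Adora2a, Ada and Slc29a1, did not pass, and no difference between NAD genes and adenosine genes was tested. Of all tested genes, 3.75% passed as higher and 5.21% as lower. The median log2 fold change of the 8 members was -0.19, beside 0.01 over all tested genes. The comparison is the one that chose the family, so nothing is read from these counts. Without LME-sEV library 2, 0 of the 8 passed in the same edgeR test, beside 170 genes higher and 223 lower of all 12623 tested. Without that library 4 of the 8 had an unadjusted p under 0.05 in that test, beside 3 of the 8 with all libraries. The share of all tested genes under that unadjusted threshold is not given here, so nothing is read from these numbers.

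The promoters of the members that passed the test are shown because these genes moved in opposite directions. They come from RefSeq on GRCm38.p6 and span 300 bases around the start of a RefSeq transcript, most of them upstream of it, on the plus strand, with CpG dinucleotides in capitals. Of the 10 members, 8 had a promoter in the table. The stretches lie at chr5:43868559-43868858 for Cd38 and chr12:32820085-32820384 for Nampt. The GENCODE M21 genes, whose positions are given with each member, begin further upstream, at 43868553 and 32819545, so both windows lie within them.
Cd38: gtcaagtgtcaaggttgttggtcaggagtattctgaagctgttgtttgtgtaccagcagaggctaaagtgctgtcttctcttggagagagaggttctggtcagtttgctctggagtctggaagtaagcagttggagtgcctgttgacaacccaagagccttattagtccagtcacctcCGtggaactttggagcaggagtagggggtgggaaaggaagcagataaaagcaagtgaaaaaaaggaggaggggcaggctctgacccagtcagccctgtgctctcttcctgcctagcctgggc
Nampt: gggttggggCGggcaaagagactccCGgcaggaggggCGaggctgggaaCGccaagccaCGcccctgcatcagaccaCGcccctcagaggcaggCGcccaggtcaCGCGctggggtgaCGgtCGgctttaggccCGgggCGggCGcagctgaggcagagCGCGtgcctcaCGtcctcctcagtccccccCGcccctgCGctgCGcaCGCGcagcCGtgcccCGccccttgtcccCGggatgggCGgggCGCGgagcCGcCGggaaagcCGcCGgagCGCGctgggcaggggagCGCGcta
The Cd38 promoter held 1 CpG and had a GC content of 51.7%. Promoters with as few CpG made up 14.1% of the 32851 in the table. The Nampt promoter held 36 CpG at a GC content of 76.3%, and 6.23% of promoters held as many. Among the other members with 1 promoter in the table, Art2b had 3, Ada 20 and Nt5e 23 CpG, against a median of 7 over the table. The 2 promoters of P2rx7 had 4 and 8, the 2 of Entpd1 had 10 and 23, and the 8 of Slc29a1 had 3 to 30. These counts describe the letters of the windows only.

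Bst1 encodes a GPI-anchored ADP-ribosyl cyclase first known from bone marrow stromal cells and also found on myeloid and B-lineage cells. It lies on chromosome 5 (43818885 to 43843986, plus strand, GRCm38 with GENCODE M21, as for all genes here). HCME-sEV libraries 1 to 4 had 1.69, 3.29, 4.80 and 3.26 CPM, from 7, 13, 18 and 14 counts. LME-sEV libraries 1 to 3 had 13.2, 23.8 and 22.9 CPM, from 49, 106 and 118 counts. Every LME-sEV library was above every HCME-sEV library, and LME-sEV library 1 was the lowest of its group. The means were 3.26 ± 1.27 CPM (SD, n = 4) and 19.96 ± 5.89 CPM (SD, n = 3), 6.12-fold apart. The log2 fold change was 2.64 with a standard error of 0.262, and 4 of the tested genes had a higher one. With each library left out in turn it lay between 2.42 and 2.87.

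An exon of Fbxl5, which encodes an iron-sensing subunit of a ubiquitin ligase, overlaps an exon of Bst1 on the opposite strand over 98 bases (43821541 to 43821638). The strand setting of the counting is not given in the sources used here, so reads within the overlap cannot be assigned with certainty. The overlap lies 22348 bases from the 3′ end of Bst1 and 76926 bases from that of Fbxl5. The part of reads from Fbxl5 in the counts of Bst1 was not tested. Fbxl5 itself rose by a log2 fold change of 0.78, from a mean of 40.7 CPM to 69.5 CPM (FDR = 0.000360, edgeR quasi-likelihood).

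Cd38 encodes the transmembrane relative of BST1, the main NAD-degrading ectoenzyme of lymphocytes. It begins 24566 bases after the end of Bst1, on the same strand of chromosome 5 (43868553 to 43912375). Its levels were 7.23, 5.32, 6.94 and 7.22 CPM in HCME-sEV libraries 1 to 4. In LME-sEV libraries 1 to 3 they were 9.69, 14.8 and 12.6 CPM. The groups did not overlap, which held for 20.3% of all tested genes, and LME-sEV library 1 was again the lowest of its group. Cd38 averaged 6.68 ± 0.913 CPM (SD, n = 4) in the HCME-sEV libraries against 12.4 ± 2.58 CPM (SD, n = 3) in the others, and it rose with a log2 fold change of 0.90 (standard error 0.206, FDR = 0.00941, edgeR quasi-likelihood). Without LME-sEV library 2 the log2 fold change was 0.75 and the FDR was 0.0856 in the same edgeR test. Over the 35 ways of dividing the libraries, an exact two-sided permutation test of log2 CPM gave p = 0.0286 for Cd38, unadjusted, and the same for Nampt and P2rx7, of the 9 members other than Bst1, and it can give no smaller p.

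Bst1 went from the smaller to the larger number of counts of the pair. Its counts were 18.9%, 38.2%, 40.9% and 31.1% of the sum of both genes in HCME-sEV libraries 1 to 4. In LME-sEV libraries 1 to 3 they were 57.6%, 61.6% and 64.5%. The exact 95% binomial intervals (Clopper-Pearson, counting error only) were 7.96% to 35.2%, 22.2% to 56.4%, 26.3% to 56.7% and 18.2% to 46.6% in the former libraries. In the latter they were 46.4% to 68.3%, 53.9% to 68.9% and 57.1% to 71.4%, so the intervals of some libraries of the 2 groups overlapped although the shares did not. Each transcript gives 1 tag in this assay whatever its length, but capture can differ between genes, so the share follows the pair across libraries and is no molar ratio. Summed, the pair had between 8.62 and 11.7 CPM with HCME-sEVs and between 22.9 and 38.6 CPM with LME-sEVs. Both the share and the sum contain the counts of Bst1, whose rise chose the family, so their group differences are descriptions and no test.

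**Figure D1:**
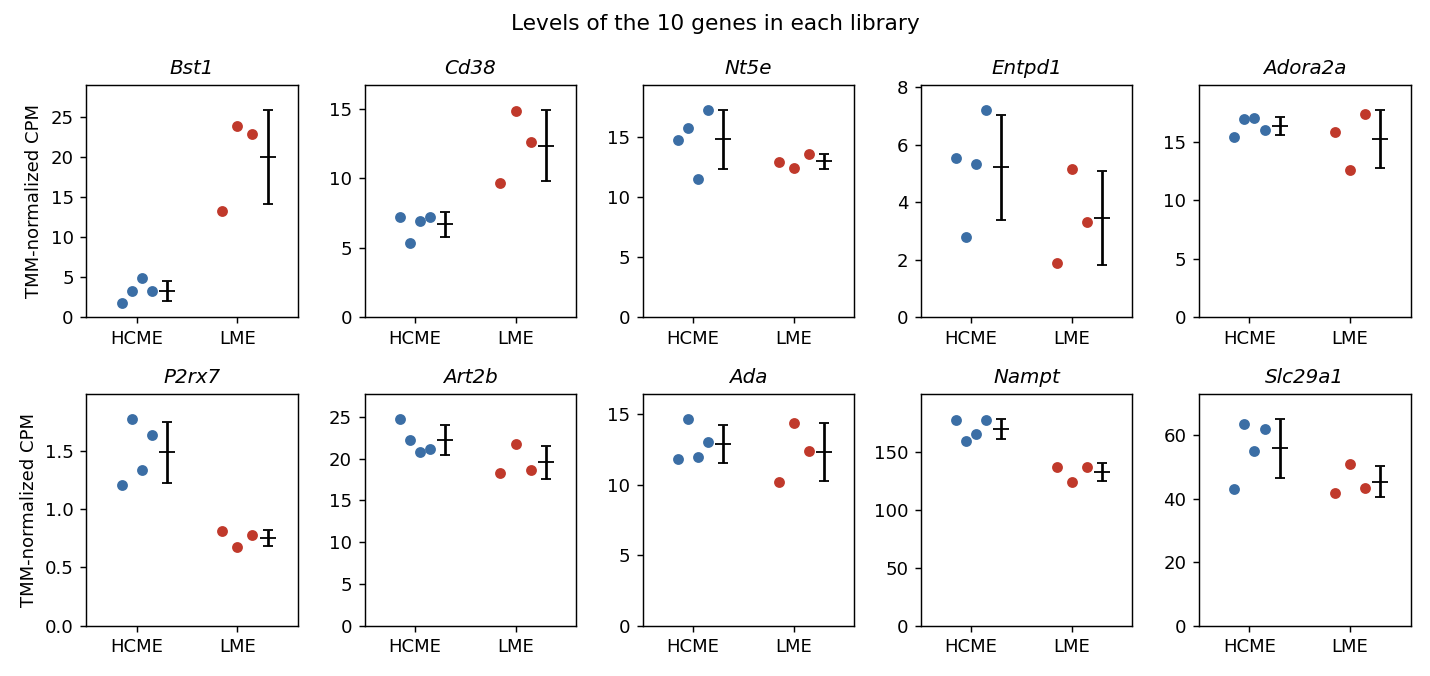
TMM-normalized CPM (vertical axes, from 0) of the 10 genes in the 4 HCME-sEV libraries (blue) and the 3 LME-sEV libraries (red), with the mean and SD of each group in black. Bst1 and Cd38 are above every HCME-sEV library in all LME-sEV libraries, Nampt and P2rx7 are below, and the groups overlap in the other genes.

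Nampt was the most abundant of the 10 genes in both groups. It lies on chromosome 12 (32819545 to 32853349). HCME-sEV libraries 1 to 4 had 176.8, 159.1, 164.8 and 177.2 CPM. LME-sEV libraries 1 to 3 had 136.9, 123.4 and 136.5 CPM, all under the lowest HCME-sEV library. Nampt averaged 169.5 ± 8.97 CPM (SD, n = 4) in the HCME-sEV libraries against 132.3 ± 7.71 CPM (SD, n = 3) in the others, and it fell with a log2 fold change of -0.36 (standard error 0.0808, FDR = 0.00842, edgeR quasi-likelihood). Without LME-sEV library 2 the log2 fold change was -0.31 and the FDR 0.0748 in the same edgeR test.

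Art2b encodes the GPI-anchored ADP-ribosyltransferase ART2.2 of mouse T cells and lies on chromosome 7 (101576970 to 101585600). It was at 24.8, 22.3, 20.8 and 21.2 CPM with HCME-sEVs and at 18.3, 21.8 and 18.6 CPM with LME-sEVs. The groups overlapped through LME-sEV library 2, and the log2 fold change of -0.19 had a 95% interval from -0.47 to 0.10 (FDR = 0.454, edgeR quasi-likelihood). Its neighbour in the family, Art2a, had between 1 and 10 counts per library. No transcript of another gene was at least 95% identical over 200 or more of the last 300 bases of Art2b or of any other member.

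P2rx7, the receptor that ART2.2 modifies, was the least abundant member and lies on chromosome 5 (122643911 to 122691432). It had 5, 7, 5 and 7 counts in HCME-sEV libraries 1 to 4 and 3, 3 and 4 counts in LME-sEV libraries 1 to 3. The LME-sEV libraries were all lower, but sat at or near the floor of 3 counts. With a mean of 4.86 counts it stayed under the minimum for testing. The 10 counts with LME-sEVs against 24 with HCME-sEVs gave a ratio of 0.505 after scaling, with an exact 95% interval from 0.215 to 1.09 for counting error only. With the minimum removed, its log2 fold change was -0.95 (standard error 0.629, FDR = 0.597, edgeR quasi-likelihood). An exon of the microRNA gene Mir8115 overlaps P2rx7 on the same strand.

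Of the ecto-nucleotidases, Entpd1 (chromosome 19, 40612366 to 40741602) had 5.54, 2.79, 5.34 and 7.22 CPM in HCME-sEV libraries 1 to 4. It had 1.88, 5.17 and 3.30 CPM in LME-sEV libraries 1 to 3. The groups overlapped, with LME-sEV library 2 near the middle of the HCME-sEV libraries, and the log2 fold change of -0.58 had a 95% interval from -1.31 to 0.15 (FDR = 0.352, edgeR quasi-likelihood). Nt5e (chromosome 9, 88327197 to 88372092) ranged from 11.5 to 17.2 CPM with HCME-sEVs and from 12.4 to 13.6 CPM with LME-sEVs, within the range of the other group. Its log2 fold change of -0.19 had a 95% interval from -0.54 to 0.15 (FDR = 0.539, edgeR quasi-likelihood).

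Adora2a, the main adenosine receptor of T cells (chromosome 10, 75316877 to 75334784), had 15.4 to 17.1 CPM with HCME-sEVs. With LME-sEVs it had 15.9, 12.6 and 17.4 CPM, so that group held both the lowest and the highest library. The log2 fold change was -0.09 with a 95% interval from -0.41 to 0.23 (FDR = 0.785, edgeR quasi-likelihood). Ada, which deaminates adenosine to inosine (chromosome 2, 163726584 to 163750239), had 11.8 to 14.7 CPM with HCME-sEVs and 10.2 to 14.4 CPM with LME-sEVs. Its log2 fold change of -0.05 had a 95% interval from -0.41 to 0.31 (FDR = 0.896, edgeR quasi-likelihood). These intervals still hold changes of either sign.

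Slc29a1 encodes ENT1, the equilibrative carrier that moves adenosine across the membrane (chromosome 17, 45585200 to 45599606). It had 43.1, 63.6, 54.9 and 61.9 CPM in HCME-sEV libraries 1 to 4 and 41.7, 51.0 and 43.4 CPM in LME-sEV libraries 1 to 3. HCME-sEV library 1 lay among the LME-sEV libraries. The log2 fold change of -0.30 (95% interval -0.56 to -0.04) did not pass the correction (FDR = 0.150, edgeR quasi-likelihood), but without HCME-sEV library 1 it was -0.40 with an FDR of 0.0251 in the same edgeR test. An exon of Gm17080 overlaps on the opposite strand, and that gene had 0 counts in every library.

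**Figure D2:**
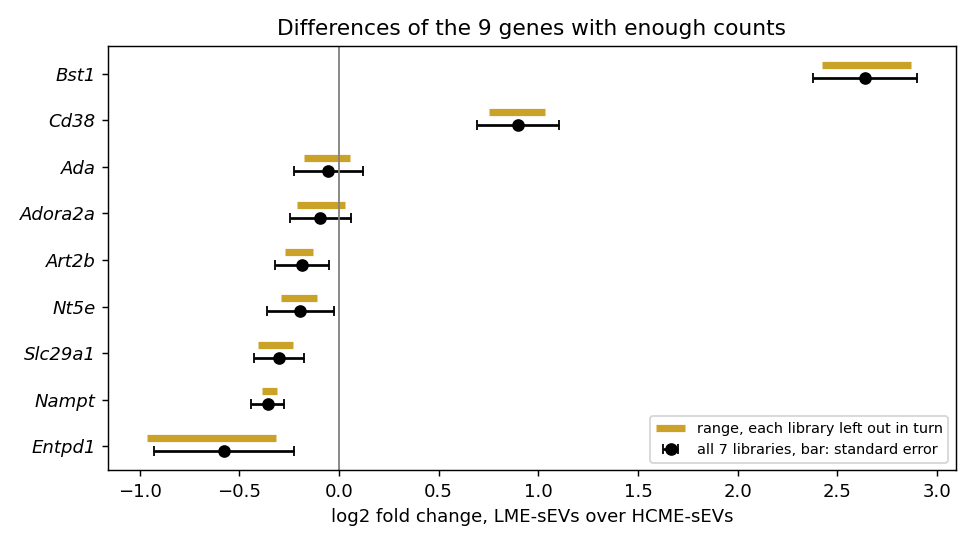
Log2 fold change of LME-sEVs over HCME-sEVs (horizontal axis) for the 9 members with a mean of at least 5 counts. Points with bars give the value and standard error over all 7 libraries, and the yellow lines the range when each library is left out in turn. Bst1 at 2.64 and Cd38 at 0.90 are on the right of 0 and Nampt at -0.36 on the left throughout, whereas the ranges of Ada and Adora2a include 0.

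In order of mean level with HCME-sEVs the members were Nampt, Slc29a1, Art2b, Adora2a, Nt5e, Ada, Cd38, Entpd1, Bst1 and P2rx7. Art2b, at 20.8 CPM or more, was above every library of the genes that follow it, whereas Nt5e met both of its neighbours, Adora2a and Ada, and from Cd38 down each range met the next. With LME-sEVs, Bst1 took the third place at 19.96 CPM, in a range from 13.2 to 23.8 CPM that met those of Art2b, Adora2a, Nt5e, Cd38 and Ada. Cd38 stayed in the seventh place, and its range now met those of Bst1, Adora2a, Nt5e and Ada. These orders compare 3′ tags, in which length does not enter.

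A wider list of 91 other genes of NAD and adenosine biology was drawn up from knowledge of the pathway, also with earlier results known, of which 57 were tested. Of these, 6 passed as higher and 2 as lower with LME-sEVs, beside 3.75% and 5.21% of all tested genes. Their median log2 fold change was 0.05, beside 0.01 over all tested genes. The groups did not overlap for 16 of the 57, against 20.3% of all tested genes. Of the 34 genes not tested, 7 had 0 counts in every library and the others at most 10 counts in any. Without LME-sEV library 2, 1 gene of the list passed as higher and 2 as lower, beside 170 and 223 of all 12623 tested genes. The numbers were 3 and 1 without LME-sEV library 3, beside 198 and 263 of all tested genes. They were 2 and 2 without HCME-sEV library 4, beside 366 and 550, and 5 and 1 without HCME-sEV library 1, beside 405 and 524. They were 4 and 1 without HCME-sEV library 2, beside 299 and 417, and 5 and 1 without LME-sEV library 1, beside 389 and 453.

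In NAD synthesis, 1 of 8 tested genes passed. Nmrk1, the kinase that feeds nicotinamide riboside into NAD, rose with a log2 fold change of 0.66, the means being 32.2 ± 3.03 CPM (SD, n = 4) in the HCME-sEV libraries against 50.7 ± 4.32 CPM (SD, n = 3) in the others (standard error 0.110, FDR = 0.00106, edgeR quasi-likelihood), opposite in sign to Nampt. The 3′ end of a Nmrk1 transcript is nearly identical to one of Gm28791, so its counts are uncertain. The NAD-forming enzymes Nmnat1 and Nmnat3 and the kinases Nadk and Nadk2 did not pass. Of 3 tested genes around ADP-ribosylation, Adprh, which removes ADP-ribose from arginine, rose by a log2 fold change of 0.28 (standard error 0.0816, FDR = 0.0375, edgeR quasi-likelihood). It passed in 3 of the 7 fits with a library left out.

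Of the 5 tested P2Y receptors, 1 passed in each direction. P2ry14, the receptor for UDP-sugars, fell with a log2 fold change of -0.95, the means being 29.0 ± 5.87 CPM (SD, n = 4) in the HCME-sEV libraries against 15.2 ± 3.51 CPM (SD, n = 3) in the others (standard error 0.175, FDR = 0.00201, edgeR quasi-likelihood), and it passed with any library left out. P2ry10, which despite its name responds to lysophosphatidylserine, rose by a log2 fold change of 0.33 (standard error 0.0849, FDR = 0.0191, edgeR quasi-likelihood), and passed in 4 of the 7 fits with a library left out. Among the P2X channels, only P2rx4 had enough counts to be tested (log2 fold change 0.37, FDR = 0.376, edgeR quasi-likelihood). Of the other adenosine receptors, Adora2b alone was tested, with a log2 fold change of -0.72 (standard error 0.357, FDR = 0.240, edgeR quasi-likelihood).

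Of 18 tested genes of cAMP signalling, the pathway below Adora2a, 2 rose and 1 fell. The phosphodiesterases Pde3b and Pde4d, which degrade cAMP, rose by log2 fold changes of 0.30 (standard error 0.0751, FDR = 0.0156, edgeR quasi-likelihood) and 0.55 (standard error 0.141, FDR = 0.0179, edgeR quasi-likelihood). Crem, a transcription factor gene that responds to cAMP, fell by 0.36 on the log2 scale (standard error 0.0984, FDR = 0.0253, edgeR quasi-likelihood). Without each library in turn, Pde3b and Pde4d passed in 5 of 7 fits and Crem in 3. An exon of Gm6225 overlaps Crem on the opposite strand.

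Among 11 tested genes of adenosine clearance and purine salvage, 1 passed. Dpp4 (CD26), the peptidase that binds adenosine deaminase on human, though not mouse, T cells, rose with a log2 fold change of 0.40, the means being 64.3 ± 10.5 CPM (SD, n = 4) in the HCME-sEV libraries against 85.0 ± 5.85 CPM (SD, n = 3) in the others (standard error 0.111, FDR = 0.0257, edgeR quasi-likelihood). It passed in 2 of the 7 fits with a library left out, and an exon of Gm13561 overlaps it on the opposite strand. Adenosine kinase (Adk) was at a log2 fold change of 0.01 and purine nucleoside phosphorylase (Pnp) at -0.22, and neither passed.

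**Figure D3:**
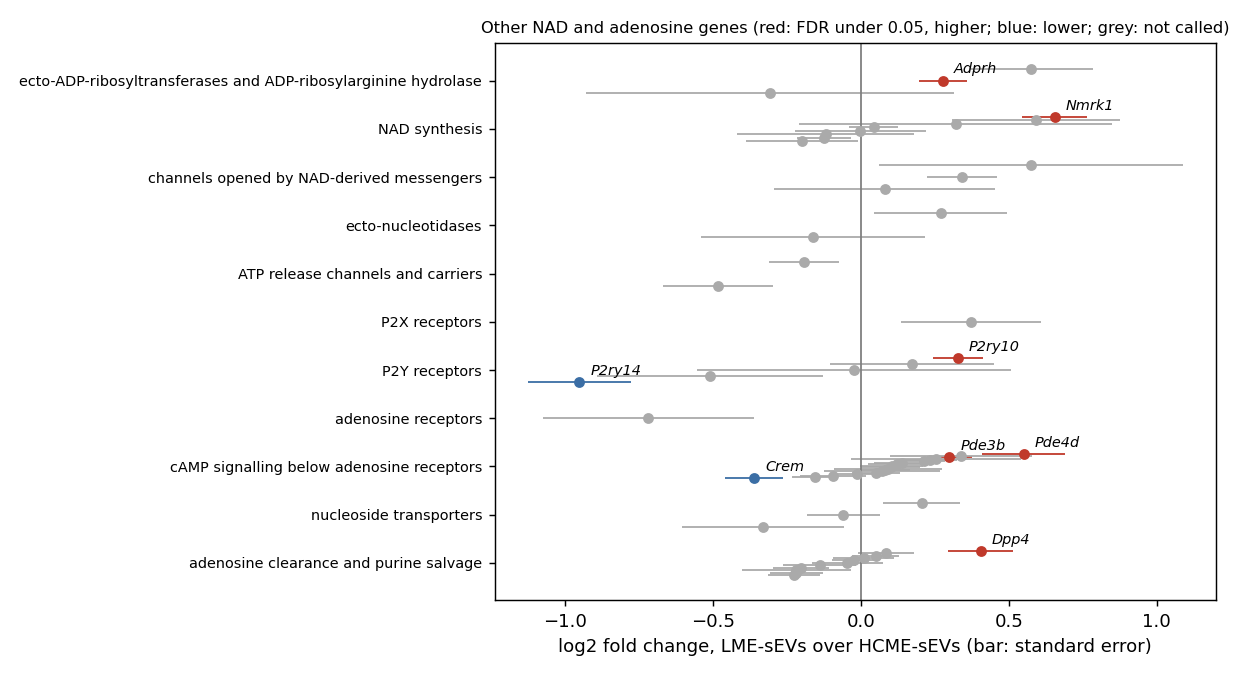
Log2 fold change of LME-sEVs over HCME-sEVs (horizontal axis, bars are standard errors) for the 57 tested genes of the wider list, in rows by role. The 6 genes that passed as higher are red and the 2 that passed as lower are blue, both with their names, and grey genes did not pass. P2ry14 at -0.95 and Nmrk1 at 0.66 are the outermost genes that passed.

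The 5 genes whose log2 CPM followed Bst1 most closely over the 7 libraries, of 9694 compared, were Prkcb, Serinc3, Ncf1, Ighm and Acss1. Their Pearson correlations with Bst1 were 0.999, 0.996, 0.994, 0.994 and 0.992, and that of Cd38 was 0.892. All 7 points share the difference between the groups, so these values describe likeness in these libraries only. In each of the 5 genes every LME-sEV library was above every HCME-sEV library, with log2 fold changes between 0.38 for Ighm and 0.74 for Acss1.

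BST1 and CD38 are also made by B cells and myeloid cells, so lists of marker genes were summed in each library. In bulk libraries more cells of a type and more RNA per cell cannot be told apart. The 10 B-cell genes summed to between 240.9 and 285.7 CPM with HCME-sEVs and between 325.6 and 347.1 CPM with LME-sEVs, and most of this was Ighm, which passed as higher (log2 fold change 0.38, FDR = 0.00430, edgeR quasi-likelihood). It was the 1 of 5 tested genes of that list to pass, and of all tested genes 3.75% passed as higher. Ighd, the other heavy chain gene of naive B cells, averaged 3.33 CPM with HCME-sEVs and 5.84 CPM with LME-sEVs, without overlap (FDR = 0.105, edgeR quasi-likelihood). Cr2 averaged 10.3 and 12.4 CPM and Cd79b 3.46 and 3.89 CPM, and in both the groups overlapped. Pax5, too low to be tested, averaged 0.863 and 0.229 CPM, and Cd79a and Fcer2a had at most 3 counts in any library. The 11 myeloid genes summed to between 6.98 and 9.40 CPM and, with LME-sEVs, between 13.2 and 16.9 CPM, and neither of the 2 tested, Cd68 and Fcer1g, passed. Cd68 averaged 1.61 CPM with HCME-sEVs and 3.13 CPM with LME-sEVs, without overlap (FDR = 0.173, edgeR quasi-likelihood). Of the genes too low to be tested, Itgam averaged 0.0582 and 1.52 CPM, and every LME-sEV library was above every HCME-sEV library. Tyrobp averaged 0.562 and 1.91 CPM, S100a8 0.0633 and 0.523 CPM and S100a9 0.124 and 0.513 CPM, and in these the groups overlapped. Adgre1, Cd14 and Csf3r had at most 3 counts in any library. The 4 plasma-cell genes summed to between 6.93 and 9.54 CPM and, with LME-sEVs, between 11.3 and 15.5 CPM, with Mzb1 at 0 in every library. Igkc averaged 4.46 and 9.42 CPM and passed as higher (FDR = 0.0158, edgeR quasi-likelihood). Sdc1, the other tested gene of that list, averaged 2.87 and 2.86 CPM and did not pass. Jchain, too low to be tested, averaged 0.67 and 1.3 CPM, and its groups overlapped. The part of such cells in the rise of Bst1 and Cd38 was not tested.

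Apart from the CD8+ T-cell list, the sums of the other lists overlapped between the groups, and their ranges follow with HCME-sEVs first. The 9 basophil and mast-cell genes summed to 20.2 to 48.9 CPM and 47.3 to 65.9 CPM, with 3 of 8 tested genes higher. Those 3 were Mcpt8, Prss34 and Kit, whereas Cpa3 averaged 9.2 and 7.7 CPM and did not pass. The 8 erythroid and platelet genes summed to 72.0 to 176.0 CPM and 151.8 to 198.9 CPM, with 3 of 7 higher. Those 3 were Hba-a1, Pf4 and Ppbp, whereas Hbb-bs averaged 23.1 CPM in both groups and did not pass. The 7 stromal and endothelial genes summed to 36.9 to 50.9 CPM and 44.6 to 48.3 CPM, and Col3a1, Pdgfra, Pdgfrb and Cdh5 had at most 3 counts in any library. The 4 natural killer cell genes were at 18.4 to 31.5 CPM and 16.7 to 29.7 CPM. The 7 genes of CD8+ T cells themselves were slightly higher, at 2005 to 2209 CPM and 2260 to 2546 CPM, and 2 of the 7 passed as higher. The 4 genes of CD4 and regulatory T cells were at 34.0 to 42.1 CPM and 38.6 to 42.2 CPM, and 1 of 2 tested genes passed as higher.

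**Figure D4:**
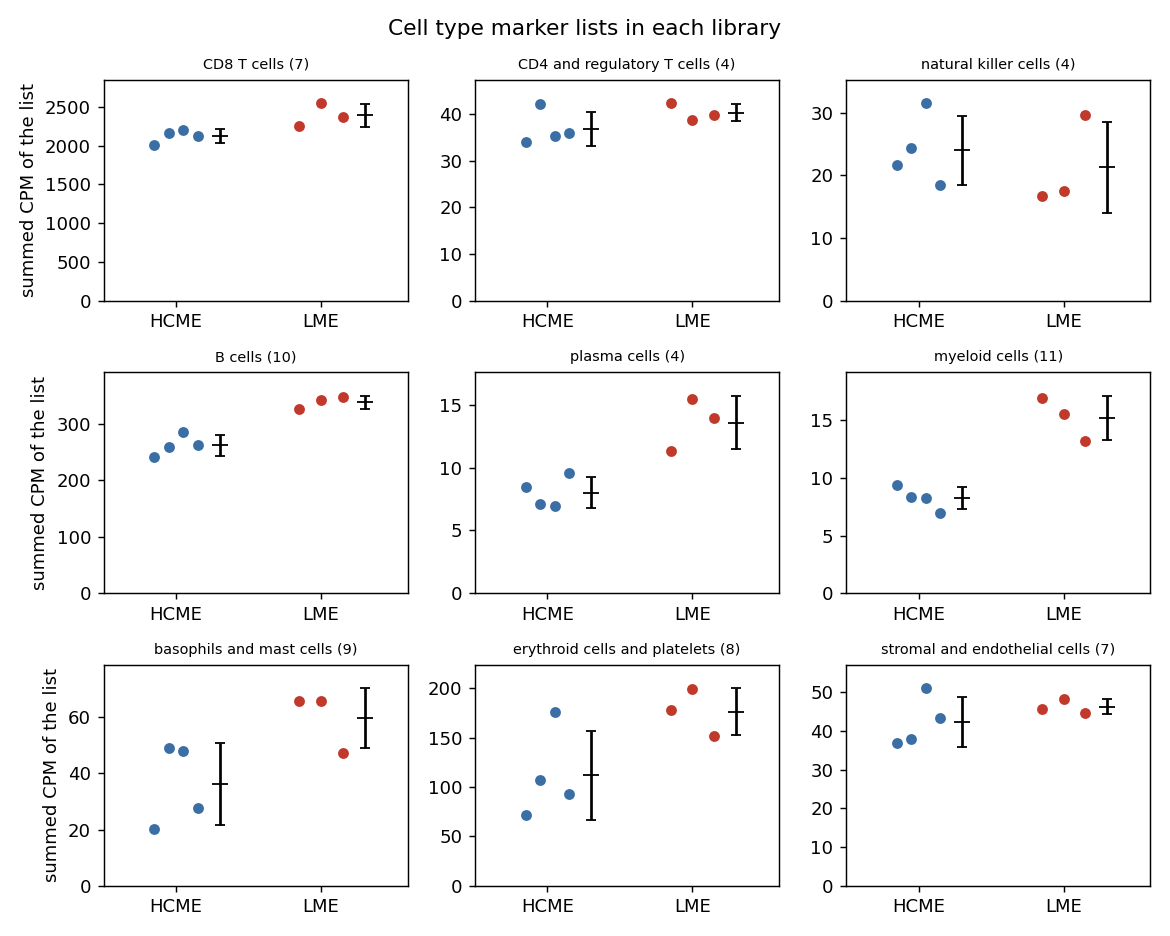
Summed TMM-normalized CPM (vertical axes, from 0) of each list of cell type markers, with the number of genes in parentheses, in HCME-sEV (blue) and LME-sEV (red) libraries, and the mean and SD in black. The B-cell, plasma-cell, myeloid and CD8 T-cell sums separate the groups, and the others overlap.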

How the data were processed

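RNA was measured by QuantSeq 3′ sequencing with unique molecular identifiers in 7 libraries of mouse CD8+ T cells, 4 with HCME-sEVs and 3 with LME-sEVs, grouped by their labels. The authors trimmed reads with cutadapt 2.10, aligned them to GRCm38 with STAR 2.5.3a, collapsed identifiers with UMI-tools 1.0.0 and counted genes with featureCounts of Subread 2.0.0. The deposited values are raw counts. The annotation release and the strand setting of the counting are not given in the sources used here.

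Genes that reached 5 counts per library on average were fitted with edgeR 4.0.16 (TMM, quasi-likelihood F-test, no block) in R 4.3.3, on LME-sEV minus HCME-sEV, with Benjamini-Hochberg adjustment over all tested genes. A standard error is the log2 fold change divided by the root of its F statistic. Log2 CPM used a prior count of 2. Single values used an exact permutation test. Alternatives were other filters, other scalings, DESeq2 1.42.0, limma-voom 3.58.1, a replicate block and each library left out in turn, with the tested genes kept.

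The members and all lists were chosen with earlier results of these data known. The genes named are the members, every gene of the wider list that passed, the 5 genes most like Bst1 among those with a mean of at least 20 counts, and markers at or near 0 or summed. Other markers of the B-cell, plasma-cell, myeloid, basophil and mast-cell, erythroid and platelet, and CD4 and regulatory T-cell lists were named after their values were seen. Fbxl5, Art2a, Nmnat1, Nmnat3, Nadk, Nadk2, P2rx4, Adora2b, Adk and Pnp were named after their values were seen. Gene positions are from GENCODE M21 on GRCm38, and 3′ ends were compared with BLAST 2.17.0.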

Additional observations from a re-analysis of the deposited data

Results flagged for a closer look

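Of 18 gene levels checked for a library apart in the HCME-sEV group, 1 stood out, and chance flags about 1 in 20. Cd38 in HCME-sEV library 2, at 5.32 CPM, lay below the other 3 libraries of its group, and its gap to the nearest was 0.8465 of the group's range, above Dixon's critical value of 0.829. The groups of 3 libraries were not checked.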

How the results depend on the processing

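Under the 9 other settings of filter, scaling, test and replicate block, 2 of the members other than Bst1 passed each time. The log2 fold change of Bst1 lay between 2.62 and 2.68, and the wider list had 5 to 8 genes higher and 2 lower. Of all tested genes, which numbered 11160 to 26474 under these settings, 327 to 614 were higher and 465 to 860 lower. The 8 higher genes of the list came with scaling by library size alone, which also gave the 614. DESeq2 placed 105 of all genes past the FDR and the log2 fold change of 1, against 162 with edgeR, and the cause was not tested. Adprh did not pass without a minimum count (FDR = 0.0583, edgeR).

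Leaving out each library in turn gave 170 to 537 genes higher, 223 to 756 lower and 84 to 181 beyond the fold threshold. Of the 9 members other than Bst1, 0 to 3 passed, and of the wider list 1 to 6 as higher and 1 to 2 as lower. The lowest counts of all genes came without LME-sEV library 2, with 170 higher, 223 lower and 84 beyond the fold threshold, and without LME-sEV library 3 they were 198, 263 and 94. The log2 fold change of Adora2a ranged from -0.211 to 0.032, and was above 0 without LME-sEV library 2. That of Ada ranged from -0.173 to 0.057, with 0.014 when HCME-sEV library 2 and 0.057 when LME-sEV library 1 was left out.

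Deviations of same-numbered libraries correlated at 0.07, 0.15 and 0.03, and those of different numbers at -0.21 to 0.08. HCME-sEV libraries 1 and 2 correlated best with the LME-sEV library of their own number, and HCME-sEV library 3 with LME-sEV library 1. Whether the numbers mark pairs is not given in the sources used here and these values do not settle it. The main fit had no block. With the replicate block 594 genes were higher, 860 lower and 179 beyond the fold threshold, and 2 of the members other than Bst1 passed, with 6 higher and 2 lower in the wider list. P2rx7 and the 34 untested genes of the wider list had too few counts for the main test, and the part of depth in this was not tested.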
